A study of Mus musculus with 11 samples.

Results

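The receptors that place B cells in and around the follicle were followed as a group of 10 genes, taken by their mouse symbols from a table of 48795 genes in which each matched 1 Ensembl gene. They comprise the chemokine receptors Cxcr5, Cxcr4, Ccr6 and Ccr7, the sphingosine-1-phosphate (S1P) receptors S1pr1, S1pr2 and S1pr4, the oxysterol receptor Gpr183 (EBI2), the G protein subunit Gna13 and the regulator of G protein signaling Rgs1. RNA was measured in 11 libraries of splenic B cells, each from 1 female C57BL/6 background mouse of 8 to 12 weeks, on day 10 after intravenous immunization with sheep red blood cells (SRBC). Light zone (LZ) germinal center (GC) B cells came from 4 wild-type mice (Myc_WT, mice 1 to 4) and 4 mice (Myc_VD, mice 5 to 8) that carry the V394D change of MYC at the endogenous locus, which abolishes binding of MYC to its partner MIZ1 in every cell of the animal. Memory B cells (MBCs) were sorted from 3 of the Myc_WT mice, mice 1, 3 and 4. No MBC library of Myc_VD mice was analysed here, so genotype was compared in LZ B cells alone. All spleens were depleted of CD43+ cells, LZ B cells were gated as B220+ CD138neg IgDneg CD38 low or negative Fas+ CD86high CXCR4low, and MBCs as B220+ CD138neg AA4.1neg IgDneg CD38+ CD273+. In the labels the mouse names of Myc_WT mice 1 to 3 share a stem, Myc_WT mouse 4 has another and all Myc_VD mice a further one. What the stems stand for is not given in the sources used here, and stem and genotype cannot be told apart.

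B cells find the follicle through CXCR5, which follows CXCL13 made by follicular stromal cells, and within a GC the balance of CXCR5 and CXCR4 sets the LZ apart from the dark zone. EBI2, which senses an oxysterol, draws B cells to the outer follicle, CCR7 draws them toward the T cell zone and CCR6 responds to CCL20. S1P is abundant in blood and lymph: S1PR1 couples to G alpha i and drives exit from lymphoid tissue toward it, while S1PR2 couples through G alpha 13 to RhoA and holds B cells in the GC. RGS proteins speed the shut-off of G alpha i and so damp chemokine signals. The study asked how MYC and MIZ1 together bear on the fate of LZ B cells, MBCs among them, and these genes record the positional side of the LZ and MBC states.

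Values are TPM (transcripts scaled to a fixed total per library), which are also scaled by gene length, so levels of different genes can be set side by side, but they keep no read depth. Between 13169 and 19537 genes were above 0 in an LZ library and between 11527 and 16040 in an MBC library. Among 6668 genes whose LZ mean reached 10 TPM, the MBC library of mouse 1 had 253 at 0, that of mouse 3 had 421 and that of mouse 4 had 57, against 34 to 69 in LZ libraries. Across genes, pairs of MBC libraries gave r from 0.647 to 0.743 and pairs of Myc_WT LZ libraries from 0.913 to 0.952. The MBC library of mouse 4 stood closer to the Myc_WT LZ libraries (r from 0.817 to 0.836) than the other MBC libraries did (0.666 to 0.676), and it alone among MBC libraries had T cell transcripts, with all 7 T cell markers above 0 (30.6 TPM in sum) against 7 of 7 at 0 in mice 1 and 3. The MBC library of mouse 3 held 4298 TPM of erythroid markers, against 4.74 and 21.8 TPM in the other MBC libraries. All 6 pan B cell markers were above 0 in every library. By the test described below, 4 of 7 GC markers (Bcl6, Mef2b, Gcsam and Nuggc) fell in MBCs, where 5.04% of all genes tested were lower. Of 5 memory markers, 3 (Cd38, Pdcd1lg2 and Cd80) were higher, where 4.17% of all genes were. The remaining memory markers, Nt5e (log2 difference -0.31) and Zbtb32 (-0.11), went the other way and did not pass. Cd38 and Pdcd1lg2 encode proteins used in the MBC gate, and Cd80, with a mean of 0.578 TPM in Myc_WT LZ B cells, entered the fit through its MBC values.

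The limma test was run on log2(TPM + 1), which shrinks the change of a low gene, over all genes whose mean in the libraries compared reached 1 TPM, with Benjamini-Hochberg adjustment over all genes tested. In MBCs, Ccr6, S1pr1, Ccr7 and Gpr183 rose and S1pr2 fell, while Cxcr5, Cxcr4, S1pr4, Gna13 and Rgs1 did not pass the adjusted threshold of 0.05. Of the 10 genes, 4 were thus higher, against 4.17% of all 13245 genes tested, and 1 was lower, against 5.04%. Ccr7, 1 of the 4, had a mean under 1 TPM in LZ B cells and entered the fit only through its MBC values. The median log2 difference over the 10 genes was 0.69, and that over all genes tested was -0.14. In Myc_VD LZ B cells 9 of the 10 genes were in the fit, Ccr7 being under the minimum, and none of the 9 passed, where 0.00777% of 12869 genes were higher and 0.0389% were lower. In bulk RNA a smaller share of cells with a transcript and less of it per cell cannot be told apart.

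**Figure D1:**
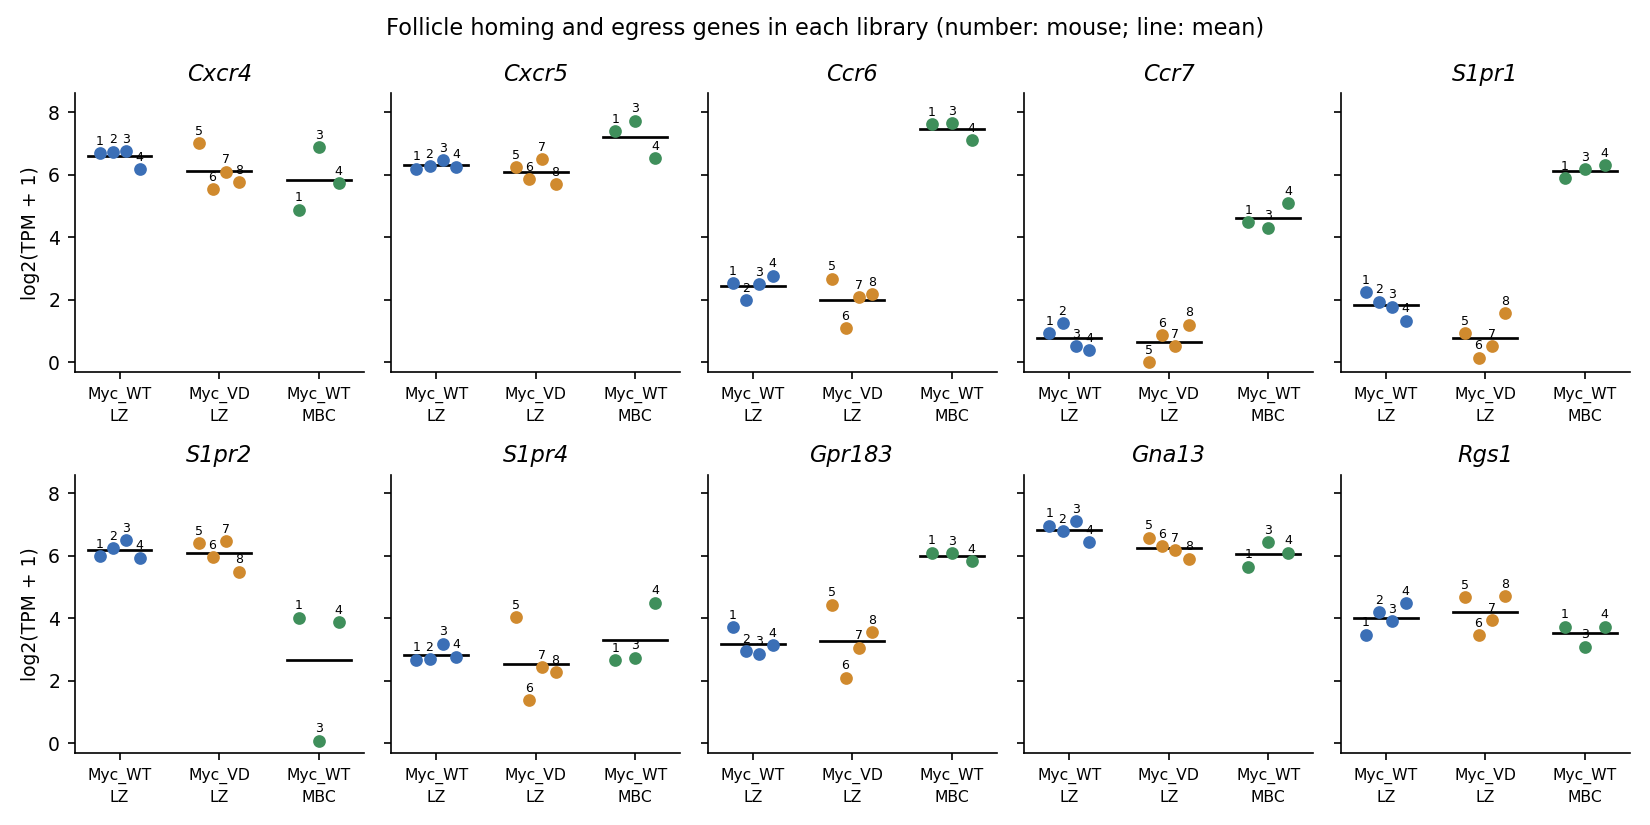
The level of each of the 10 genes in the 11 libraries, as log2(TPM + 1), by group, with a point per library numbered by mouse and a line at the group mean. Ccr6, Ccr7, S1pr1, Gpr183 and, by a narrow gap, Cxcr5 sat higher in all 3 MBC libraries than in any LZ library, S1pr2 sat lower, and the LZ libraries of both genotypes overlapped for every gene.

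Promoter windows of RefSeq (300 bases around an annotated start, GRCm38.p6, read 5′ to 3′ on the strand of the gene) were on hand for 6 of the 10 genes, Cxcr4, Ccr6, S1pr2, S1pr4, Gpr183 and Gna13. They are shown for the MBC-high receptors Ccr6, which has 2 annotated starts, and Gpr183, for the MBC-low receptor S1pr2, and for Gna13, which was the only one of the 6 with an E-box, the letters CACGTG to which MYC with MAX is known to bind. Capitals mark CACGTG and the letters CACCC or their reverse complement GGGTG, the core of sites for KLF factors, searched on both strands. The matches do not overlap in the windows shown.
Ccr6, first start: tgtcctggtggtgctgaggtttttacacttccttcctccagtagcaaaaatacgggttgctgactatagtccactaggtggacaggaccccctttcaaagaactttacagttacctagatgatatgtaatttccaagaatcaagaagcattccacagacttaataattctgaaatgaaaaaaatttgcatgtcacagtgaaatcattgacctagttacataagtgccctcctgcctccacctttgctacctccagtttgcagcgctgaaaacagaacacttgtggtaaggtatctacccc
Ccr6, second start: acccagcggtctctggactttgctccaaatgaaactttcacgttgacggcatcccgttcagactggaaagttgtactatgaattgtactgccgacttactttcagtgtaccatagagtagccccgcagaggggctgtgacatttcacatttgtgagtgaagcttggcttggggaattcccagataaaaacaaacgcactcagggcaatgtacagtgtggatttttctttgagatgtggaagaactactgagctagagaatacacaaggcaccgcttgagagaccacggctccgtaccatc
Gpr183: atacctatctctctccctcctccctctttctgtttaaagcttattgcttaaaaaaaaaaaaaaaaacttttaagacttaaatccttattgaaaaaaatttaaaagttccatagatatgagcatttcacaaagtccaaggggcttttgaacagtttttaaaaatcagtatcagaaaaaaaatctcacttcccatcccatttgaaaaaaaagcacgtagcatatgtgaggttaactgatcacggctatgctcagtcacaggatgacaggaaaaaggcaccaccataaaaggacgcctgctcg
S1pr2: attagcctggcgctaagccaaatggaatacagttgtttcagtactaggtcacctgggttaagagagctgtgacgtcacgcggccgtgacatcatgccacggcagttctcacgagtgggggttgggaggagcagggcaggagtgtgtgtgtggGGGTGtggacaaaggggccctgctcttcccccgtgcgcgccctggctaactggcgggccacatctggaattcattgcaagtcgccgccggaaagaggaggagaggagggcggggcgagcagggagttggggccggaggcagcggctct
Gna13: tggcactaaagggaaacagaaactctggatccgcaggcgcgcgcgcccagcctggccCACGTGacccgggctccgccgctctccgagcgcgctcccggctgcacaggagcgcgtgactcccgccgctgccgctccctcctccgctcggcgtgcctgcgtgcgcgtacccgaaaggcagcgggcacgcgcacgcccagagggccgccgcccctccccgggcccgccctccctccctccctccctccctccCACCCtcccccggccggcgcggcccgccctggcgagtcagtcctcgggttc
These windows lie at chr17:8235793-8236092 (+) and chr17:8242276-8242575 (+) for Ccr6, chr14:121965144-121965443 (-) for Gpr183, chr9:20976744-20977043 (-) for S1pr2 and chr11:109362544-109362843 (+) for Gna13. CACGTG is found in 7.15% of the 32851 promoter windows of the same length and CACCC or GGGTG in 57.5%. Neither motif was present in the windows of Ccr6 and Gpr183, the S1pr2 window held CACCC or GGGTG 1 time, and the Gna13 window held each motif 1 time. The share of G and C was lowest in the Gpr183 window (35.3%), 42.3% and 47.7% in those of Ccr6, 62.0% in that of S1pr2 and highest, at 76.7%, in that of Gna13.

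Ccr6 (ENSMUSG00000040899, chromosome 17, 8236043 to 8257141) encodes the receptor for CCL20, which is found on memory and naive B cells and is low in the GC. It was at 4.81, 3, 4.64 and 5.83 TPM in the LZ B cells of Myc_WT mice 1 to 4 and at 196, 201 and 136 TPM in the MBCs of mice 1, 3 and 4. Every MBC library thus lay far above every LZ library, with the lowest value in mouse 4. The mean rose from 4.57 ± 1.17 TPM (SD, n = 4) to 178 ± 36.4 TPM (SD, n = 3), or 38.9-fold. Its log2 difference of 5.01 (95% interval 4.24 to 5.78, adjusted p = 0.000312 from limma) was the 11th highest of all genes tested. In MBCs Ccr6 had the highest mean of the 10 genes.

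Ccr7 (ENSMUSG00000037944, chromosome 11, 99144196 to 99155077), the receptor for CCL19 and CCL21, was at 0.90, 1.37, 0.44 and 0.31 TPM in Myc_WT LZ B cells, and MBCs held 21.4, 18.8 and 33.0 TPM. It was thus close to the lower limit of the table in LZ B cells, and it entered the fit through its MBC values alone, since its mean in LZ B cells was under the minimum of 1 TPM. The mean was 0.755 ± 0.482 TPM (SD, n = 4) in LZ B cells and 24.4 ± 7.56 TPM (SD, n = 3) in MBCs, a log2 difference of 3.85 (95% interval 2.75 to 4.96, adjusted p = 0.00352 from limma). The highest Ccr7 value came from MBC mouse 4, the library with T cell transcripts, and the values of MBC mice 1 and 3, in which all 7 T cell markers were at 0, also lay above all LZ values.

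Cxcr5 (ENSMUSG00000047880, chromosome 9, 44511787 to 44561877), the follicle homing receptor, was well expressed in all groups. It was at 72.5, 76.4, 87.5 and 75.4 TPM in Myc_WT LZ B cells and reached 168, 211 and 90.9 TPM in MBCs. The ranges did not overlap, but MBC mouse 4 lay close to the highest LZ library. The mean of 156.5 ± 60.8 TPM (SD, n = 3) in MBCs was 2.01 times that of 77.9 ± 6.56 TPM (SD, n = 4) in LZ B cells, with a log2 difference of 0.92 (95% interval 0.22 to 1.61) and an adjusted p of 0.0939 from limma. Without MBC mouse 4 the difference was 1.26 and passed the threshold (adjusted p = 0.0115), and without mouse 1 or mouse 3 it was 0.83 and 0.66 and did not (0.16 and 0.152). On the other strand the gene overlaps Bcl9l, which had means of 7.85 TPM in Myc_WT LZ B cells and 25.7 TPM in MBCs, and the part of its reads in the Cxcr5 values was not tested.

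Cxcr4 (ENSMUSG00000045382, chromosome 1, 128588199 to 128592293), the receptor for CXCL12 that places cells in the dark zone, was at 103, 106, 107 and 71.6 TPM in Myc_WT LZ B cells. In MBCs it was at 28.5, 117 and 52.1 TPM, below the LZ value of the same mouse in mice 1 and 4 and above it in mouse 3. LZ B cells were gated as low for CXCR4 protein and MBCs were not gated on it, so the gate and the cell type cannot be told apart for this gene. The log2 difference was -0.76 (95% interval -1.76 to 0.23, adjusted p = 0.303 from limma). Without MBC mouse 3 it was -1.29 and passed the threshold (adjusted p = 0.0381), and that library held the erythroid transcripts described above, whose part in this value was not tested. Without MBC mouse 1 it was -0.28 (adjusted p = 0.616).

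S1pr1 (ENSMUSG00000045092, chromosome 3, 115710433 to 115715072), the receptor for exit toward S1P, was at 3.72, 2.84, 2.44 and 1.52 TPM in Myc_WT LZ B cells, against 58.0, 71.8 and 77.9 TPM in MBCs. The groups lay far apart, and the MBC libraries, mouse 4 included, were close to one another. The mean rose from 2.63 ± 0.913 TPM (SD, n = 4) to 69.2 ± 10.2 TPM (SD, n = 3), 26.3-fold, with a log2 difference of 4.30 (95% interval 3.41 to 5.19, adjusted p = 0.00128 from limma), the 27th highest of all genes tested.

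S1pr2 (ENSMUSG00000043895, chromosome 9, 20962361 to 20976781), which confines B cells to the GC, was at 62.6, 74.9, 89.7 and 60.6 TPM in Myc_WT LZ B cells. In MBCs it was at 15.2, 0.06 and 13.7 TPM in mice 1, 3 and 4. All MBC libraries were below all LZ libraries, and mouse 3 was near 0 in the library with the most LZ genes listed at 0. The mean was 71.9 ± 13.4 TPM (SD, n = 4) in LZ B cells and 9.67 ± 8.35 TPM (SD, n = 3) in MBCs, 7.44 times lower, with a log2 difference of -3.51 (95% interval -5.47 to -1.55, adjusted p = 0.0387 from limma). Without MBC mouse 3 the difference was -2.22 and still passed (adjusted p = 0.00366). The call was lost when any 1 of the 4 LZ libraries was left out (adjusted p from 0.0936 to 0.116), with the mouse as a replicate block (-3.48, adjusted p = 0.0729), with a pseudocount of 0.1 (0.0957), without the filter (0.0968) and without a trend (0.0579), and the difference stayed below 0 in each of these limma fits.

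S1pr4 (ENSMUSG00000044199, chromosome 10, 81497747 to 81500132), a further S1P receptor of lymphocytes and myeloid cells, was at 5.42, 5.51, 8.11 and 5.83 TPM in Myc_WT LZ B cells, and MBCs held 5.29, 5.69 and 21.7 TPM. Only MBC mouse 4 lay above the LZ range. Its log2 difference of 0.46 (95% interval -0.80 to 1.73, adjusted p = 0.632 from limma) became -0.14 without that library, in which the 6 myeloid markers summed to 178 TPM, against 36.4 and 58.7 TPM in the other MBC libraries. The part of those transcripts in the S1pr4 value was not tested.

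Gpr183 (ENSMUSG00000051212, chromosome 14, 121952551 to 121965195), which guides B cells to the outer follicle and is known to be turned off in the GC, was at 12.1, 6.69, 6.3 and 7.81 TPM in Myc_WT LZ B cells and reached 67.5, 67.0 and 56.1 TPM in MBCs. It had the smallest relative spread over the MBC libraries of the 10 genes, the highest being 1.20 times the lowest. The mean rose from 8.22 ± 2.65 TPM (SD, n = 4) to 63.55 ± 6.44 TPM (SD, n = 3), 7.73-fold, with a log2 difference of 2.84 (95% interval 2.06 to 3.63, adjusted p = 0.00311 from limma). Gpr183 lies within Ubac2 on the opposite strand, which had means of 17.6 TPM in Myc_WT LZ B cells and 12.7 TPM in MBCs, and the part of its reads in the Gpr183 values was not tested.

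Gna13 (ENSMUSG00000020611, chromosome 11, 109362831 to 109401369), the G alpha 13 subunit that carries the S1PR2 signal, was the highest of the 10 genes in LZ B cells. It was at 124, 109, 138 and 85.8 TPM in Myc_WT LZ B cells, against 49.5, 85.8 and 67.75 TPM in MBCs. The highest MBC value met the lowest LZ value, so that the ranges overlapped. Gm11696, on the opposite strand, overlaps Gna13 and had means of 4.61 TPM in Myc_WT LZ B cells and 3.44 TPM in MBCs, and the part of its reads was not tested. The log2 difference was -0.76 (95% interval -1.40 to -0.12, adjusted p = 0.125 from limma), and it passed only under quantile normalization among the alternatives (-0.98, adjusted p = 0.0336). Rgs1 (ENSMUSG00000026358, chromosome 1, 144242296 to 144249242), which damps G alpha i signals of chemokine receptors, was at 10.1, 17.3, 13.9 and 21.5 TPM in Myc_WT LZ B cells. In MBCs it was at 12.3, 7.53 and 12.3 TPM, within or below the LZ range (log2 difference -0.49, 95% interval -1.43 to 0.44, adjusted p = 0.479 from limma).

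Counted by ranges alone, with no test, 5 of the 10 genes lay above all Myc_WT LZ libraries in all 3 MBC libraries (Cxcr5, Ccr6, Ccr7, S1pr1 and Gpr183), against 11.8% of all genes tested, and 1 lay below (S1pr2), against 14.4%. Of these, Ccr7 was among the genes tested only through its MBC values.

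**Figure D2:**
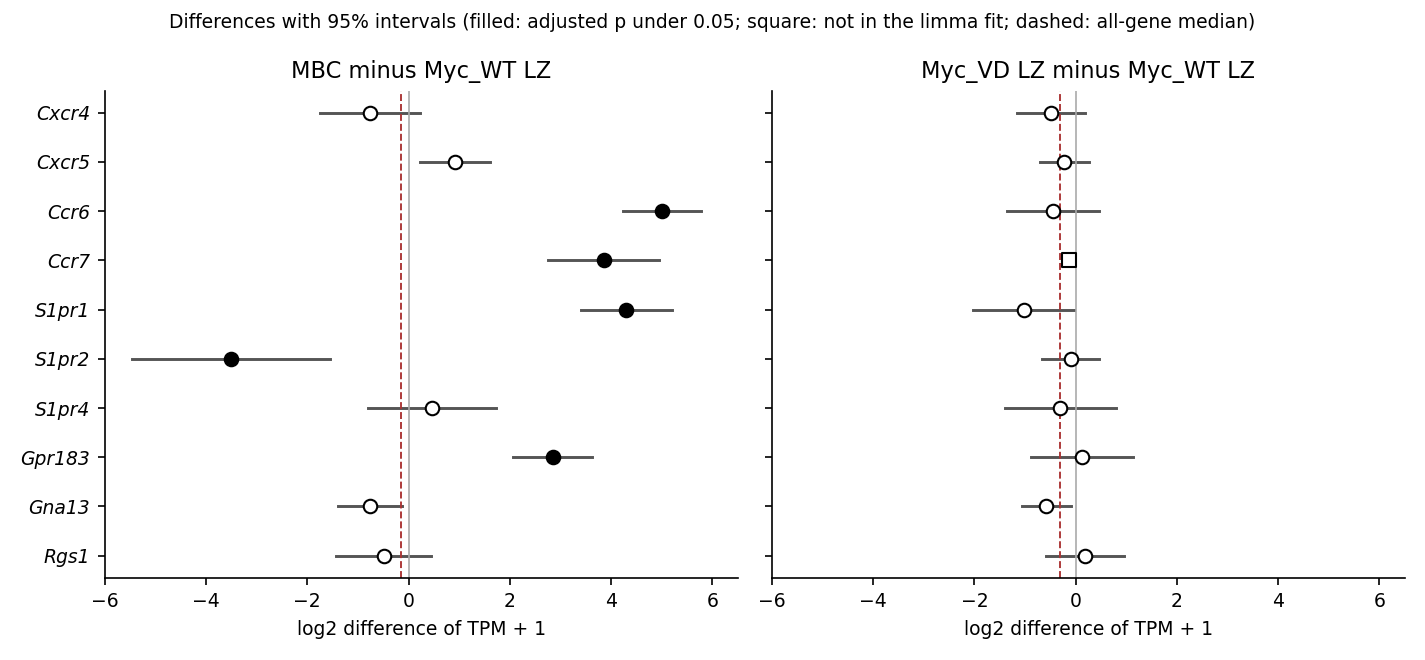
Log2 differences of TPM + 1 for the 10 genes, MBC minus Myc_WT LZ on the left and Myc_VD LZ minus Myc_WT LZ on the right, with 95% intervals from limma, filled points for an adjusted p under 0.05, a square for Ccr7, which was not in the Myc_VD fit, and dashed lines at the median of all genes tested (-0.14 and -0.31). In MBCs 4 genes lie to the right and 1 to the left of 0 with filled points, and none is filled in Myc_VD.

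Mice 1, 3 and 4 gave both MBC and LZ libraries, so the genes were also set side by side within a mouse, without a test. Ccr6 was 40.8, 43.4 and 23.3 times higher in MBCs than in LZ B cells of mice 1, 3 and 4. S1pr1 was 15.6, 29.4 and 51.2 times higher and Gpr183 was 5.59, 10.6 and 7.19 times higher. These receptors therefore differed in 1 direction in all 3 mice, as did Ccr7, Cxcr5, S1pr2 and Gna13. S1pr2 was 4.11 times lower in mouse 1, 4.42 times lower in mouse 4 and at 0.06 TPM against 89.7 TPM in mouse 3. Cxcr4 was 3.61 times lower in mouse 1, 1.37 times lower in mouse 4 and 1.09 times higher in mouse 3, and S1pr4 and Rgs1 also lacked a common direction.

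**Figure D3:**
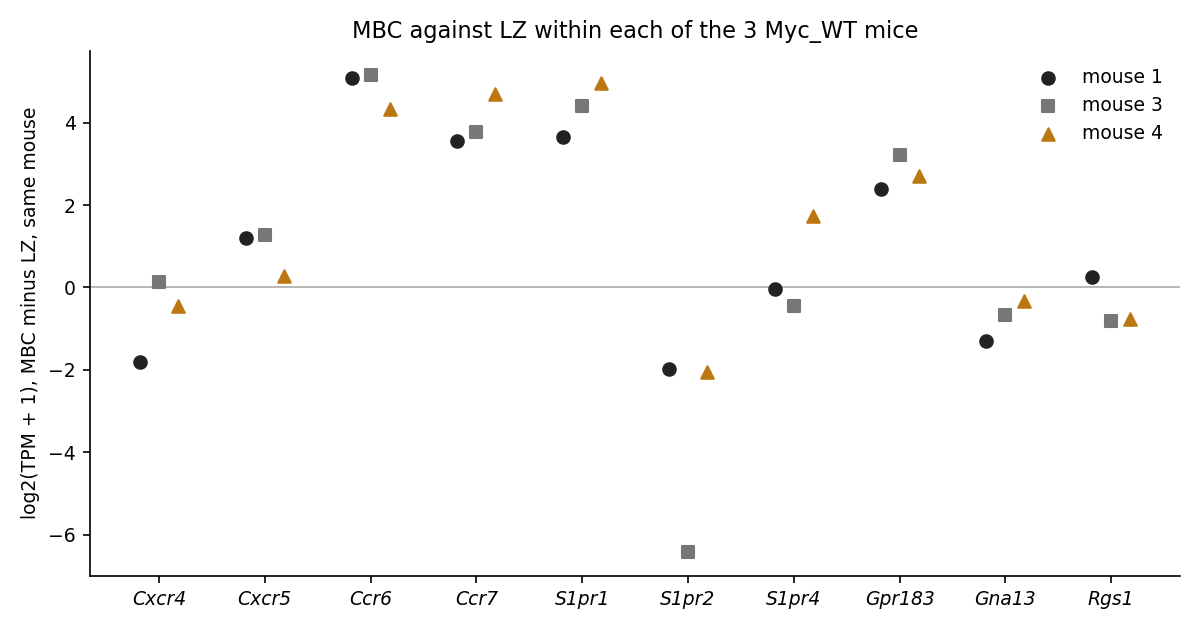
Difference in log2(TPM + 1) between the MBC and the LZ library of each Myc_WT mouse for each of the 10 genes, with a symbol per mouse (1, 3 and 4). Ccr6, Ccr7, S1pr1 and Gpr183 are above 2 in all 3 mice, and S1pr2 is at -1.97, -6.42 and -2.06.

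In Myc_WT LZ B cells the order of mean levels per length was Gna13, Cxcr4, Cxcr5 and S1pr2, then Rgs1, Gpr183, S1pr4, Ccr6, S1pr1 and Ccr7. Neighbours in this order overlapped over the 4 mice except at S1pr2 against Rgs1 and S1pr1 against Ccr7, and S1pr2, at 71.9 TPM, was above 94.2% of 21695 protein-coding genes. In MBCs the order was Ccr6, Cxcr5, S1pr1, Gna13, Cxcr4, Gpr183, Ccr7, S1pr4, Rgs1 and S1pr2. There, neighbours were apart only at Cxcr5 against S1pr1 and at Gpr183 against Ccr7. The 4 receptors called higher in MBCs were also summed, as a description, since that choice fixes the direction. Of the summed TPM of the 8 receptors, Ccr6, Ccr7, S1pr1 and Gpr183 made up 4.52 to 8.12% in the Myc_WT LZ libraries and 51.8 to 62.9% in the MBC libraries. The share of Cxcr5 was 27.4 to 32.9% in LZ B cells. It was alike in MBCs of mice 1 and 3 (29.9 and 30.5%) and lower in mouse 4 (18.9%). The share of S1pr2 was 23.6 to 29.3% in LZ B cells and 0.00866 to 2.85% in MBCs. The S1P receptors changed places: S1pr2 was 16.8 to 39.8 times the level of S1pr1 in the Myc_WT LZ libraries, and S1pr1 was 3.81 and 5.68 times that of S1pr2 in MBCs of mice 1 and 4, with S1pr2 near 0 in mouse 3.

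**Figure D4:**
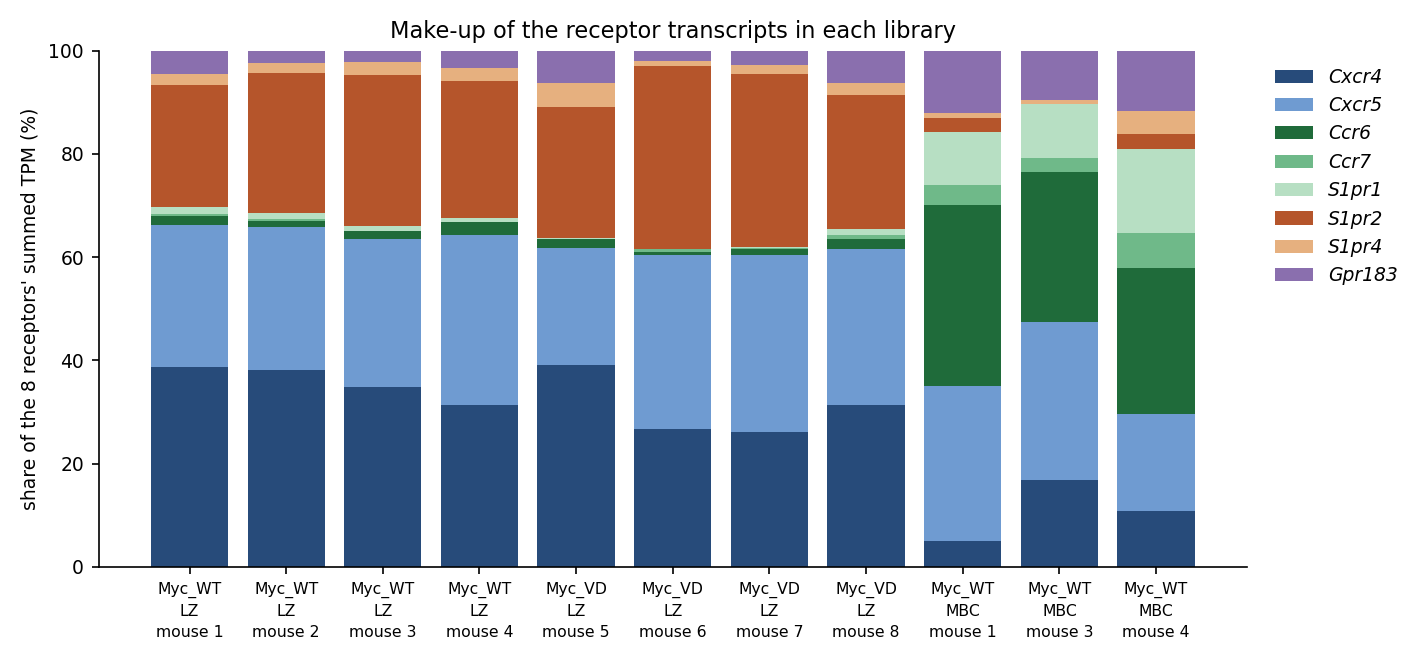
Share of each of 8 receptor genes in their summed TPM, in percent, with a bar per library. Cxcr4, Cxcr5 and S1pr2 fill most of the bar in the 8 LZ libraries of both genotypes, and Ccr6, S1pr1, Ccr7 and Gpr183 fill 51.8 to 62.9% of it in the 3 MBC libraries.

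In LZ B cells of Myc_VD mice the order of mean levels was that of Myc_WT except that S1pr2 (68.8 TPM) stood above Cxcr5 (68.05 TPM), whose ranges overlapped, with Gna13 highest and S1pr1 and Ccr7 lowest. None of the 9 genes tested passed the adjusted threshold, and the ranges of the genotypes overlapped for all 10, where 0.816% of all genes tested lay wholly higher and 9.16% wholly lower in Myc_VD. At an unadjusted p under 0.05, 2 of the 9 were lower (S1pr1 and Gna13) and 0 higher, beside 15.7% lower and 1.24% higher of all genes. The median of all genes tested was -0.31 in this comparison, with ribosomal RNA at 44.1 to 61.3% of TPM in Myc_VD and 35.7 to 44.5% in Myc_WT. With ribosomal RNA genes removed that median was -0.05, and the differences of Gna13 and S1pr1 were -0.27 and -1.08.

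S1pr1 was at 0.92, 0.11, 0.44 and 1.97 TPM in Myc_VD mice 5 to 8, of which mouse 8 lay within and the others below the Myc_WT range of 1.52 to 3.72 TPM. Its log2 difference was -1.03 (95% interval -2.03 to -0.03, adjusted p = 0.284 from limma), or -0.72 relative to all genes, and it was -1.90 with a pseudocount of 0.1 and -0.66 under quantile normalization. The 4 erythroid markers summed to 161.4, 252.8 and 203.2 TPM in Myc_VD mice 5 to 7 and 37.4 TPM in mouse 8, against 31.7 to 106.8 TPM in Myc_WT LZ B cells, with adjusted p from 0.195 to 0.398 in limma for the 4. Their part in the Myc_VD values of S1pr1 was not tested. Gna13 was at 94.96, 78.6, 71.4 and 59.2 TPM in Myc_VD mice, where only mouse 5 was within the Myc_WT range, with a difference of -0.58 (95% interval -1.07 to -0.09, adjusted p = 0.230 from limma), or -0.27 relative to all genes. Neither difference changed sign in any alternative in which the gene was tested.

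S1pr2 was at 83.6, 60.7, 87.1 and 43.9 TPM in Myc_VD mice 5 to 8, with a mean of 68.8 ± 20.3 TPM (SD, n = 4) close to the 71.9 TPM of Myc_WT. The log2 difference of -0.10 (95% interval -0.66 to 0.47) turned positive under 3 scalings. Cxcr5 was at 74.8, 57.3, 89.0 and 51.1 TPM, a difference of -0.22 (95% interval -0.71 to 0.26) that also turned positive under the same scalings. Cxcr4 was at 129, 45.8, 67.8 and 53.2 TPM, above the Myc_WT range in mouse 5 and below it in the others (-0.48, 95% interval -1.16 to 0.19, adjusted p = 0.446 from limma).

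Ccr6 was at 5.38, 1.14, 3.24 and 3.53 TPM in Myc_VD mice, a difference of -0.44 (95% interval -1.35 to 0.46). Ccr7 was at 0, 0.82, 0.44 and 1.31 TPM, with a mean under 1 TPM over the LZ libraries, and was tested alone (log2 difference -0.12, exact permutation test, two-sided, p = 0.686). In bulk RNA of all LZ B cells, both stayed in the low range. By flow cytometry the paper reported a larger fraction of CCR6+ cells within IgG1+ LZ B cells of Myc_VD, which measures protein in a part of these cells. Gpr183 was at 20.7, 3.28, 7.37 and 10.7 TPM, on both sides of the Myc_WT values, and its difference of 0.12 (95% interval -0.88 to 1.13) was -0.26 without mouse 5. S1pr4 was at 15.5, 1.62, 4.41 and 3.87 TPM (-0.30, 95% interval -1.39 to 0.79) and Rgs1 at 24.5, 10.1, 14.4 and 25.2 TPM (0.18, 95% interval -0.58 to 0.95). Mouse 5 was the highest Myc_VD library for Cxcr4, Ccr6, S1pr4, Gpr183 and Gna13, and its T cell markers summed to 11.6 TPM, against 0 to 5.73 TPM in the other Myc_VD mice, whose part in these values was not tested.

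For the 5 genes called in MBCs, the values in the 2 comparisons, which share the Myc_WT LZ libraries, were 5.01 and -0.44 for Ccr6, 4.30 and -1.03 for S1pr1 and 3.85 and -0.12 for Ccr7, in MBCs and in Myc_VD respectively. They were 2.84 and 0.12 for Gpr183 and -3.51 and -0.10 for S1pr2. Set directly against the Myc_VD LZ libraries and without a test, the MBC libraries were wholly higher for 5 genes (Cxcr5, Ccr6, Ccr7, S1pr1 and Gpr183), against 12.5% of 13131 genes, and wholly lower for 1 (S1pr2), against 5.99%. That set needed a mean of 1 TPM over the libraries of both groups. Ccr7 and S1pr1, with means of 0.64 and 0.86 TPM in Myc_VD LZ B cells, entered it through their MBC values. For Cxcr5 the gap was narrow, from 89.0 TPM in Myc_VD mouse 7 to 90.9 TPM in MBC mouse 4.

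Further genes of these pathways were taken from 9 lists of 96 genes. In MBCs 73 of them were tested, 8 of which had a mean under 1 TPM in Myc_WT LZ B cells and so entered through their MBC values. Of the 73, 9 were higher and 3 lower at the adjusted threshold, where 4.17% of all genes tested were higher and 5.04% lower, and 4 of these 12 (Klf2, Pik3r5, Rasgrp2 and Myl12b) kept that call in every alternative in which they were tested. Of 10 genes of S1P supply and S1PR1 control, 7 were tested and 1 was higher, with a list median of 0.90. Klf2, a transcription factor known to switch on S1pr1, was at 0.91 to 2.59 TPM in Myc_WT LZ B cells and 43.3 to 65.0 TPM in MBCs (log2 difference 4.37, adjusted p = 0.00159 from limma). Cd69, whose protein takes S1PR1 off the surface, was at 16.9 and 41.5 TPM on average and did not pass (adjusted p = 0.0571 from limma).

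Among 12 genes of the G alpha 13 and RhoA arm, 2 were higher and 0 lower, with a median of 0.49. Arhgef1, the RhoA exchange factor downstream of G alpha 13, was at 144 to 189 TPM in Myc_WT LZ B cells, and MBCs held 569, 494 and 256 TPM (1.38, adjusted p = 0.0238 from limma), and Myl12b, a myosin light chain, rose from 69.7 to 354 TPM on average (2.35, adjusted p = 0.00212 from limma). Of 15 genes of G alpha i, G beta gamma, receptor kinases and arrestins, 0 were higher and 2 lower, the G protein subunits Gnb4 (-2.32) and Gng12 (-3.02), and the list median was -0.11. Of 9 other RGS genes, 8 were tested and only Rgs2 passed, lower at 82.1 against 206.5 TPM (-1.34, adjusted p = 0.0122 from limma), while Rgs13, a GC gene of the same family, was at 25.6 against 83.0 TPM with an adjusted p of 0.0523.

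Of 10 other chemokine receptors 2 were tested, and Cxcr3, the receptor for interferon-induced chemokines, was higher in MBCs (5.6 to 7.01 TPM against 0.27 to 1.12 TPM, 2.16, adjusted p = 0.0253 from limma). Of 15 other lipid and nucleotide receptors 12 were tested, with a median of 1.32, and 2 passed, Gpr132 (3.25) and the cannabinoid receptor Cnr2 (1.49), both higher. Of 16 migration effectors 3 were higher and 0 lower, with a median of 0.19: Dock2, a Rac exchange factor, Pik3r5, a subunit of PI3K gamma, and Rasgrp2, an activator of Rap1. Of the called genes, Cxcr3 and Gpr132 were among those that entered the fit through their MBC values. The oxysterol enzymes gave 1 gene with a mean over the filter, Cyp27a1 (-0.79), and none of the 5 chemokine ligand genes reached it, the highest being Ccl20 at 0.113 TPM on average in Myc_WT LZ B cells. In Myc_VD LZ B cells 0 of 66 list genes tested passed in limma, and before adjustment 11 of them had a p under 0.05, all lower, where 15.7% of all genes tested were lower. In MBCs the calls of Cxcr3, Cnr2, Arhgef1, Gnb4, Gng12 and Dock2 were lost without any 1 of the 4 LZ libraries (adjusted p from 0.0607 to 0.13 in limma), and with the mouse as a replicate block those 6, Gpr132 and Rgs2 were lost (0.0623 to 0.217). Rgs2 was also lost without LZ mouse 2 (adjusted p = 0.0585 from limma), and Arhgef1 and Dock2 without MBC mouse 1 (0.0533 and 0.0711). Among the alternatives that kept all libraries, 4 to 12 of the 12 calls held, the fewest with a spread of its own for each group.

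**Figure D5:**
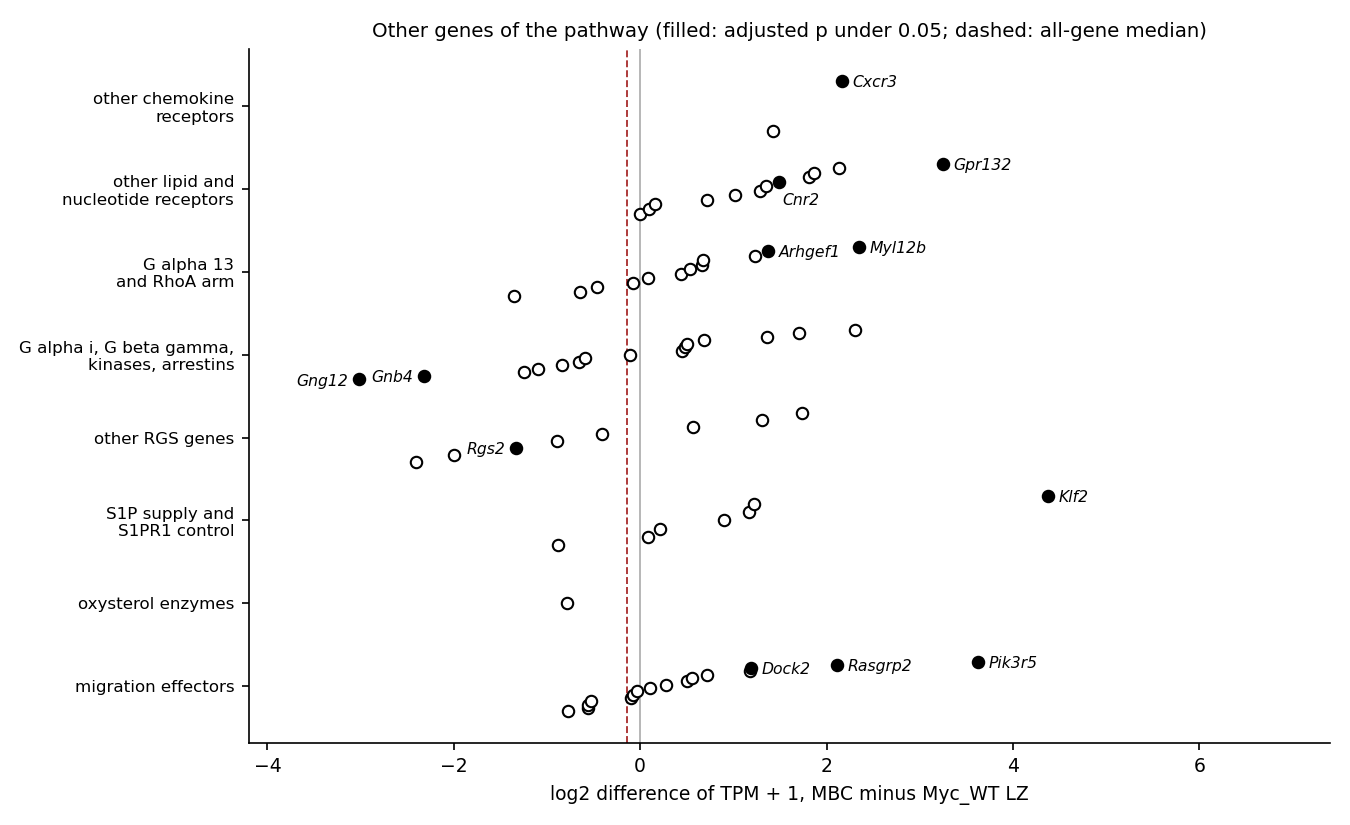
Log2 difference of TPM + 1 between MBCs and Myc_WT LZ B cells for each tested gene of 8 of the 9 lists, a point per gene, filled and named where the adjusted p was under 0.05, with a dashed line at the median of all genes (-0.14). Klf2 (4.37) lies farthest to the right and Gng12 (-3.02) farthest to the left.

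Genes listed as markers of other cells moved with the MBC group and stand beside these receptors. Of 3 naive follicular markers, 2 rose in MBCs (Ighd and Fcer2a). The sum of the 3 was 363.5 to 366.7 TPM in Myc_WT LZ B cells and 788.4 to 834.5 TPM in MBCs. Most of it came from Fcer2a (means of 197 and 507 TPM) and Cr2 (144 and 202 TPM), which LZ B cells also expressed, so it does not mark naive cells alone. Ighd was at 24.6 and 102 TPM on average, and the MBC gate was IgDneg. The 6 myeloid markers summed to 7.69 to 18.7 TPM in Myc_WT LZ B cells and 36.4 to 178 TPM in MBCs. Of these, 4 were tested and 2 passed, Csf1r and Itgam, which had means of 0.0425 and 0.0625 TPM in Myc_WT LZ B cells and entered the fit only through their MBC values, and S100a8 and S100a9 were at 0 in every MBC library. Of 7 T cell markers 2 were tested and 0 passed, with all at 0 in MBC mice 1 and 3. The part of these cells in the MBC levels of Ccr6, Ccr7, S1pr1 and Gpr183 was not tested, and without MBC mouse 4 the differences of these 4 genes were 5.19, 3.62, 4.21 and 2.93.

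The genes whose 11 centred log2(TPM + 1) values came nearest to each receptor, by the root mean square difference among 8003 protein-coding genes whose mean reached 5 TPM, were picked by a fixed rule and carry no test. Ccr6 lay nearest to Scml4 (0.517) and then S1pr1 (0.561), and S1pr1 to Fcrl5 (0.473) and then Ccr6. Ccr7 lay nearest to Arhgef18 (0.295) and Pdcd4 (0.453), and Gpr183 to Ceacam1 (0.361) and Gvin1 (0.371). S1pr2 lay nearest to the mitotic genes Ccnb2 (0.264), with means of 65.4 TPM in Myc_WT LZ B cells and 7.76 TPM in MBCs, and Bub1b (0.368), with 160.0 and 15.2 TPM. Cxcr5 lay nearest to Dhx36 (0.163) and Inpp5d (0.185), Cxcr4 to Hspa9 (0.226) and Jpt1 (0.227), and Gna13 to Ptges3 (0.119) and Hnrnpk (0.128). For S1pr4 these were Msto1 (0.374) and Zbtb18 (0.380), and for Rgs1 they were Nsun6 (0.340) and Ktn1 (0.350). The 11 values come from 3 groups, so a step between LZ B cells and MBCs weighs most in this measure.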

How the data were processed

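Sorted splenic B cells of 11 libraries were profiled by RNA sequencing with a Nugen cDNA kit. The authors aligned reads with STAR 2.5.2a, quantified genes with RSEM 1.3.0 on the Ensembl mouse transcriptome (GRCm38) with a setting for a strand-specific protocol, and deposited TPM with 2 decimals in 1 table. The annotation release and read numbers are not given in the sources used here. TPM are estimated reads per length scaled to a fixed total, so depth is unknown, an exact 0 can be a failed estimate, and precision was taken from the spread between mice. All 11 columns were matched to samples by name.

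Symbols and coordinates came from GENCODE M21 (GRCm38), promoter windows from RefSeq. MBC and Myc_VD LZ libraries were each compared with the 4 Myc_WT LZ libraries by limma 3.58.1 in R 4.3.3 (lmFit, eBayes with trend) on log2(TPM + 1), with a minimum mean of 1 TPM, two-sided, Benjamini-Hochberg at 0.05. Ccr7 in Myc_VD was tested by exact permutation (scipy 1.17.1, Python 3.11.15). The fits were tested on simulated data. MBC and LZ libraries of mice 1, 3 and 4 share the animal, by the mouse names in the labels, and the deviations of such pairs from their group means correlated across genes at 0.00507, 0.0115 and -0.047.

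The genes, lists, markers and tests were chosen with earlier results of these data known. Named were the 10 genes, list genes past the threshold in either comparison or, where none passed, the one with the highest mean, and 2 genes of like pattern for each of the 10. Cd69 and Rgs13 were added after their values were seen. Some list and marker genes are not reported here and were left out of the list and marker counts. Tried as alternatives were no filter or a minimum mean of 5 TPM, a pseudocount of 0.1, median ratio scaling, removal of ribosomal RNA genes or of immunoglobulin and mitochondrial genes, quantile normalization, no trend, all 3 groups in 1 fit, a replicate block and each library left out. A fit with a spread of its own for each group (arrayWeights) was added after seeing the data. Each library is 1 mouse.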

Additional observations from a re-analysis of the deposited data

Results flagged for a closer look

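Within the 20 groups of 4 libraries looked at (10 genes in Myc_WT LZ and in Myc_VD LZ), a library stood far from the other 3 of its group for 2 genes, where chance alone marks about 1 in 20. Cxcr4 was at 71.6 TPM in the LZ B cells of Myc_WT mouse 4, against 103 to 107 TPM in Myc_WT mice 1 to 3, and the name of that mouse has a stem of its own in the labels. S1pr4 was at 8.11 TPM in the LZ B cells of Myc_WT mouse 3, against 5.42 to 5.83 TPM in the other Myc_WT mice.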

How the results depend on the processing

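In MBCs the calls of Ccr6, S1pr1, Ccr7 and Gpr183 held in every alternative, and 5 of the 10 genes kept their side of the threshold and direction throughout. The count of higher genes of the 10 was 4 to 5 and of lower ones 0 to 2 with each library left out. It was 0 lower with a pseudocount of 0.1, without the filter, without a trend and with the replicate block, where S1pr2 was lost, and 2 lower under quantile normalization, where Gna13 was added. Over all genes, 552 were higher and 667 lower, against 329 and 279 without the filter, 1021 lower with all 3 groups in 1 fit, 198 and 243 with a spread of its own for each group, 130 and 118 with the replicate block (paired mice, fewer libraries), and 205 to 924 higher and 137 to 1830 lower with 1 library left out, the extremes being LZ mouse 2 and MBC mouse 4, with 137 lower also without LZ mouse 3. S1pr4 lay between -0.14 and 0.79 with 1 library left out. In Myc_VD none of the 10 genes was called in an alternative in which it was in the fit, which for Ccr7 were those without the filter and with all 3 groups in 1 fit, and Ccr6 and S1pr1 were not in that with the minimum of 5 TPM. Over all genes, 1 was higher and 5 lower. The count was 0 and 0 with a pseudocount of 0.1, without the filter, with median ratio scaling and with all 3 groups in 1 fit, 0 and 1 without ribosomal RNA genes and under quantile normalization, 0 and 2 with a spread of its own for each group, 14 lower with a mean of at least 5 TPM, 3 lower without a trend, and 0 to 12 higher and 0 to 242 lower with 1 library left out, the highest without Myc_VD mouse 5. The sign turned for Cxcr5 and S1pr2 with median ratio scaling (0.12 and 0.24), without ribosomal RNA genes (0.086 and 0.21) and under quantile normalization (0.044 and 0.17, and 0.003 for S1pr4). With 1 library left out, S1pr2 lay between -0.23 and 0.10, S1pr4 between -0.80 and 0.084, Gpr183 between -0.26 and 0.52, Rgs1 between 0.005 (without Myc_WT mouse 1) and 0.43 (without Myc_VD mouse 6), and Cxcr5 between -0.36 (without Myc_VD mouse 7) and -0.099 (without mouse 8). Ccr6 was at -0.66 and Cxcr4 at -0.79 without Myc_VD mouse 5, and they were at -0.14 and -0.30 without mouse 6. The causes of these changes were not tested. Fits with 1 library left out or with 3 pairs hold fewer libraries. Over all genes, the counts fell without some libraries and rose without others. TPM hold no depth, so low values such as those of Ccr7 and S1pr1 in LZ B cells carry a counting error that cannot be given.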

Other observations

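In the MBC libraries the genes did not share a highest mouse: mouse 3 was highest for Cxcr4, Cxcr5, Ccr6 and Gna13, mouse 4 for Ccr7, S1pr1, S1pr4 and Rgs1, and mouse 1 for S1pr2 and Gpr183. Among Myc_VD LZ libraries, mouse 6, which had the fewest genes above 0 (13169), was lowest for 6 of the 10 genes (Cxcr4, Ccr6, S1pr1, S1pr4, Gpr183 and Rgs1) and highest for 0. In that library S1pr1 was at 0.11 TPM and S1pr2 at 60.7 TPM. With S1pr1 so near 0, their ratio carries a counting error that cannot be given. Ccr6 and S1pr1 were each the second nearest gene of the other by pattern over the 11 libraries.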
